A study of Homo sapiens with 8 samples.

Results

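The genes described here are 52 that carry out DNA replication, from the marking of origins to the supply of deoxynucleotides. The members were named as a list of genes, and every probe set that the platform annotation ties to one of them alone was taken, which gave 98 of the 41091 probe sets tied to 1 gene. All 52 passed the filter on dim signal and were among the 13584 genes tested. A gene is represented by its brightest probe set, and the genes whose probe sets disagree are described at the end.

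Cells of A549, a long-used line from a human lung adenocarcinoma, received small interfering RNA (siRNA) and were profiled on 8 genome-wide Affymetrix 3' expression arrays, 2 for each of 4 groups. Cells with SRC-1 siRNA were kept with glucose or without it, and cells with control siRNA likewise. All cells spent 36 h in medium with 10% dialyzed fetal calf serum and were then given fresh medium, again with that serum, that did or did not contain glucose. SRC-1 is steroid receptor coactivator 1, the product of NCOA1, and the series asks how its loss changes expression in each medium. The number of different siRNAs used against it and the time spent in the last medium are not given in the sources used here. Arrays of the same group are biological replicates by their labels, with no word on separate cultures, so p-values reflect only how much these arrays vary.

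Before a cell copies its DNA, the origin recognition complex, CDC6 and CDT1 load the MCM2 to MCM7 helicase onto chromatin, a step called licensing. Kinases then help CDC45, the GINS complex and MCM10 to start the helicase, and polymerases with a sliding clamp, a clamp loader and single-strand binding proteins copy the strands. Many of these genes are transcribed at the border of G1 and S phase under E2F transcription factors, and their messages are low in cells that have stopped dividing.

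The labelled cell type and the siRNA were checked first. All 9 epithelial and A549 marker genes passed the filter, and their summed log2 signal lay at 112.21 to 112.22 with glucose and 111.01 to 111.27 without under SRC-1 siRNA, and at 112.03 to 112.04 with glucose and 110.93 to 111.19 without under control siRNA. Of 10 defining markers of other cell types, 8 passed the filter, while the leukocyte marker PTPRC and the fibroblast marker COL3A1 did not. These 8 stood between percentiles 43.2 and 62.4 of signal over probe sets, and the 9 epithelial and A549 markers between 78.5 and 100. Passing the filter is therefore no evidence that a gene is expressed. The sum over the 10 markers of other cell types lay at 51.99 to 53.12 with glucose and 51.96 to 52.08 without under SRC-1 siRNA, and at 52.26 to 53.27 with glucose and 52.05 to 52.15 without under control siRNA. NCOA1 read 5.47 and 5.18 with SRC-1 siRNA against 8.60 and 8.42 with control siRNA in glucose, and 5.22 and 5.09 against 8.34 and 8.24 without glucose. It was 9.10-fold lower with SRC-1 siRNA in glucose and 8.78-fold lower without (limma, adjusted p = 1.44e-05 and 1.65e-05). The 2 arrays of a group correlated at 0.997 to 0.998.

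Glucose raised nearly all of the replication genes. With SRC-1 siRNA 47 of 52 were higher with glucose than without, 0 were lower and 5 did not pass the test, where 24.6% of all genes were called higher and 20.0% lower (limma, Benjamini-Hochberg over all genes, adjusted p below 0.05). With control siRNA 46 were higher, 0 lower and 6 not called, against 23.6% of all genes called higher and 21.6% lower. The median glucose effect over the members was 1.02 on the log2 scale with SRC-1 siRNA and 0.87 with control siRNA, and over all genes tested it was 0.0059 and 0.0009. Changes of at least 2-fold were called for 27 members with SRC-1 siRNA and 23 with control siRNA, where 2.36% and 2.15% of all genes were called that much higher.

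The 2 arms share no array, so the effect averaged over both rests on 4 arrays with glucose and 4 without. On that average 48 members were higher, 0 were lower and 4 were not called (ORC2, CDC6, POLD2 and RFC5), against 29.5% of all genes higher and 26.2% lower. By the arrays alone, the 4 values with glucose all lay above the 4 without for 48 members, all below for 0, and overlapped for 4, where 28.6% of all genes separated upwards and 25.3% downwards. Within an arm, 2 arrays against 2 separate more often. With SRC-1 siRNA 50 members separated upwards and 2 downwards, beside 5119 and 4605 of all 13584 genes. With control siRNA 48 members separated upwards and 1 downwards, beside 4958 and 4805 of all genes. The averaged effects ran from -0.10 (CDC6) to 1.996 (MCM10). Ranked among all 13584 genes by this effect, 19 members stood in the top 1%, 33 in the top 5% and 46 in the top 25%. In bulk RNA, fewer cells in S phase and less of these messages per cell cannot be told apart.

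**Figure D1:**
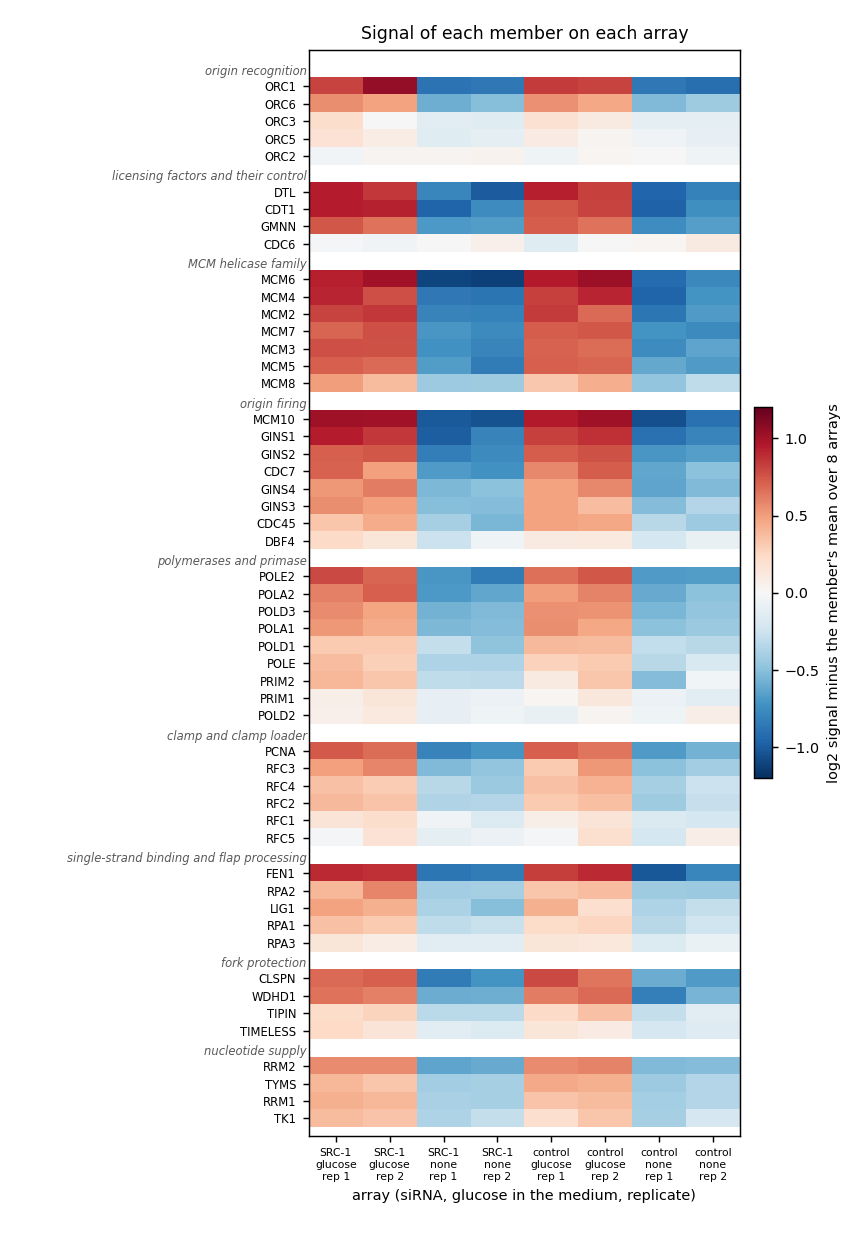
Signal of the 52 members on each of the 8 arrays, as log2 signal minus the member's mean over all arrays (red above, blue below), with genes grouped by role and ordered within a role by their averaged glucose effect. The columns with glucose are red and those without are blue for nearly every gene: the median deviation of the members lay at 0.51 and 0.48 on the arrays of SRC-1 siRNA with glucose, -0.52 and -0.51 on those without, 0.48 and 0.46 on the control siRNA arrays with glucose, and -0.51 and -0.43 on those without.

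Other measures moved with the medium as well. Among the epithelial and A549 markers, KRT19, KRT8, AKR1B10 and EPCAM were higher with glucose on average by 0.52, 0.28, 0.28 and 0.16, and KRT7 was lower by 0.36 (limma, adjusted p = 9.45e-05, 0.00151, 0.000522, 0.0459 and 0.000337). The difference between the 3' and 5' control probe sets, which grows as RNA degrades, averaged 0.157 with glucose and 0.131 without for GAPDH (n = 4 each, exact two-sided permutation test, p = 0.0571), and 0.573 and 0.480 for beta-actin (p = 0.143), where the smallest p that 4 arrays against 4 allow is 0.0286. The part of RNA quality and of these markers in the members' rise was not tested. Markers of proliferation moved too: of 13 genes of a list of proliferation and quiescence markers, 8 were higher and 4 lower with glucose on average, where 29.5% of all genes were higher and 26.2% lower. Cyclin E2 (CCNE2), which drives entry into S phase, was higher by 2.24, cyclin A2 (CCNA2) by 1.06 and the mitotic kinase CDK1 by 0.83, while CCNG2, a cyclin of arrested cells, was lower by 1.23 (adjusted p = 1.59e-07, 3.96e-06, 9.92e-06 and 8.4e-07).

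The promoters of the members were read for letters bound by E2F factors. RefSeq promoter windows (GRCh38.p14), which run from 250 bases before to 50 bases after a transcript start, were found for 46 of the 52 members by symbol. MCM4, MCM5, GINS4, POLD3, RPA2 and RPA3 have no entry there. The E2F letters searched were TTTCCCGC, TTTCGCGC, TTTGCCGC and TTTGGCGC on either strand. They stood in a window of 24 of the 46 members (52.2%), against 855 of 15843 protein-coding genes (5.4%). Some genes have several windows. Counted by window, 24 of 58 member windows held the letters (41.4%), against 910 of 22199 (4.1%).

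The share was also counted by the size of the glucose effect. Of the 24 members higher by at least 2-fold on average, where 2.21% of all genes were, 20 have a window and 14 of them held an E2F match (70%). Of the other members, 10 of 26 did (38.5%). This is a description of the list, and the difference was not tested. The CCAAT box (CCAAT, either strand), bound by NF-Y, stood in 63% of members against 42.1% of all genes, and the GC box (GGGCGG, either strand), bound by SP1, in 76.1% against 64.3%. The CHR, an element of genes expressed in G2 and mitosis, was searched as TTTGAA and TTCGAA on either strand and stood in 6.52% of members against 17.5% of all genes. Over all windows of a gene, 15 members had both an E2F match and a CCAAT box, in TIPIN in different windows, and 8 had neither. Whether base composition differs between these promoters and all others was not tested, and a match is not evidence of binding.

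**Figure D2:**
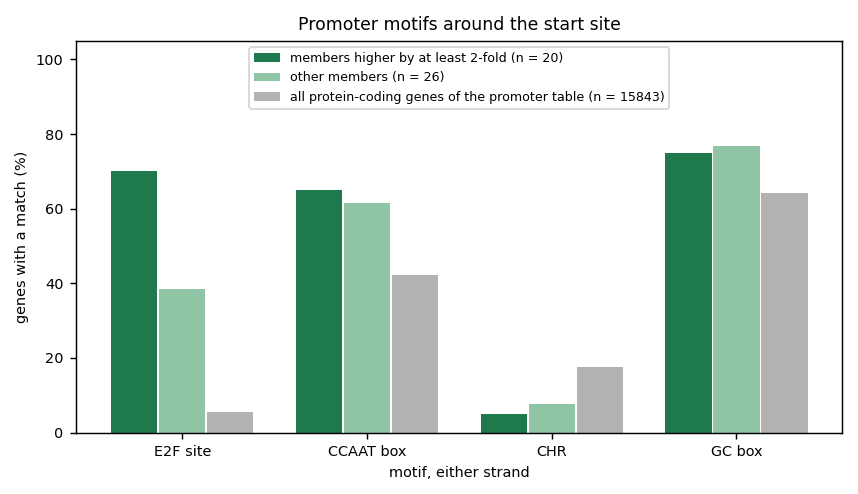
Share of genes with a match to each of 4 motifs, on either strand, in a window of 250 bases before to 50 bases after the transcript start, for the 20 members higher by at least 2-fold with glucose, the 26 other members and all 15843 protein-coding genes of the promoter table. For the E2F site the bars stand at 70%, 38.5% and 5.4%, while for the GC box they stand at 75%, 76.9% and 64.3%.

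The 250 bases before the start of 5 members are shown. Among members with 1 window whose probe sets all had the same call, MCM10, MCM6 and DTL had the highest averaged effects and PRIM1 and POLD2 the lowest. CDC6, ORC2 and RFC5, which have lower effects than PRIM1, were left out here because their probe sets disagree. Capitals mark the E2F letters, and all are read 5′ to 3′ in the direction of the gene. MCM10 at chr10:13161308-13161557 on the plus strand held no E2F match and 2 CCAAT boxes. MCM6 at chr2:135876444-135876693 on the minus strand held 4 matches, in 2 pairs that overlap on opposite strands, beginning 152, 148, 90 and 86 bases before the start. DTL at chr1:212035498-212035747 on the plus strand held 1, beginning 8 bases before the start. PRIM1 at chr12:56752324-56752573 and POLD2 at chr7:44123549-44123798, both on the minus strand, held no E2F match. All 5 stretches held a CCAAT box on either strand: 2 in MCM10, 2 in MCM6 and 1 each in DTL, PRIM1 and POLD2.
MCM10: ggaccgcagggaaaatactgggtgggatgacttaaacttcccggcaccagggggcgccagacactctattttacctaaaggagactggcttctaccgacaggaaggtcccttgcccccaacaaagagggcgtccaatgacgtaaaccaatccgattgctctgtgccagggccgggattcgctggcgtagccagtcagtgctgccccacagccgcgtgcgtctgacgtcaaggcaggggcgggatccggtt
MCM6: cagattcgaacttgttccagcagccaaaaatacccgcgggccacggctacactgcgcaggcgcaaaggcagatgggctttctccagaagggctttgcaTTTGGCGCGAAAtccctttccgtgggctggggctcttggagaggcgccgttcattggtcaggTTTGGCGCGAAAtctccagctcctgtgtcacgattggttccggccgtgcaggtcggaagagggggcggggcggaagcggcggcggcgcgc
DTL: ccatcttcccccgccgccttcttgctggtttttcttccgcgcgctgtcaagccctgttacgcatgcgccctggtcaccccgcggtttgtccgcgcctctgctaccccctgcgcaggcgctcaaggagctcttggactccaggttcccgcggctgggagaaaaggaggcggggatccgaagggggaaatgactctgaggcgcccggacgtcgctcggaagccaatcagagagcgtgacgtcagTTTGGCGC
PRIM1: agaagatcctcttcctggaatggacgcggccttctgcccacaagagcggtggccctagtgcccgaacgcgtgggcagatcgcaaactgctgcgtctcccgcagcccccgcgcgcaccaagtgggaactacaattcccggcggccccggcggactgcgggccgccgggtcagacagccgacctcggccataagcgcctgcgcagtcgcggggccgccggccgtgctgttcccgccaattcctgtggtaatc
POLD2: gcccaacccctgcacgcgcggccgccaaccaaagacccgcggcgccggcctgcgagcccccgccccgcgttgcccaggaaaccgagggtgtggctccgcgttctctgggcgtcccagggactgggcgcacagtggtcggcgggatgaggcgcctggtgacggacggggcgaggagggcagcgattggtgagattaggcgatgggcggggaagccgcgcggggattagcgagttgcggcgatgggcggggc
The sequences do not follow the size of the effect gene by gene. MCM10, with the largest averaged effect of the list, has none of these letters in its window. CDC6, which was not called by its brightest probe set, has a match 7 bases after its start. Another CDC6 probe set was called higher, by 0.33, so it is not a clear case of a gene without a rise. No match says only that these letters are absent from the window.

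Beside the counts by role below, 29.5% of all genes were called higher on average, and 2.21% at least 2-fold higher. The origin recognition complex, which marks origins, had 2 members that rose at least 2-fold on average, 2 that rose less and 1 that was not called. ORC1, its largest subunit, read 7.93 and 8.18 with glucose and 6.24 and 6.27 without under SRC-1 siRNA, and 7.97 and 7.94 against 6.26 and 6.22 under control siRNA. ORC6, the smallest subunit, read 9.96 and 9.89 against 8.82 and 8.89 under SRC-1 siRNA and 9.96 and 9.87 against 8.87 and 8.98 under control siRNA. Both genes separated fully by medium in both arms. ORC1 was higher by 1.76 ± 0.060 on average (SE, adjusted p = 1.74e-07) and ORC6 by 1.03, while ORC3 and ORC5 were higher by 0.25 and 0.20 (adjusted p = 0.00523 and 0.00692). With control siRNA alone ORC5 was not called, at 0.14 (adjusted p = 0.132). ORC2 read 8.54 and 8.60 with glucose against 8.60 and 8.62 without under SRC-1 siRNA, and 8.52 and 8.59 against 8.56 and 8.52 under control siRNA. With SRC-1 siRNA its 2 values with glucose lay below the 2 without. Over the 4 arrays of each medium its values overlapped, and its averaged effect was -0.01 (adjusted p = 0.844). Another of its probe sets was higher with glucose, as given below.

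Of the 4 licensing factors and their regulators 3 rose. CDT1, which brings the helicase to the origin, read 9.34 and 9.33 with glucose and 7.44 and 7.65 without under SRC-1 siRNA, and 9.15 and 9.21 against 7.43 and 7.67 under control siRNA. DTL, the substrate receptor of the ubiquitin ligase that destroys CDT1 in S phase, read 10.69 and 10.60 against 8.97 and 8.75 under SRC-1 siRNA and 10.69 and 10.56 against 8.80 and 8.94 under control siRNA. The values of both genes lay apart between the media in each arm. GMNN (geminin), which blocks CDT1, was higher by 1.39 (adjusted p = 1.98e-07). CDT1 was higher by 1.71 ± 0.069 and DTL by 1.77 ± 0.066 (SE, adjusted p = 3.58e-07 and 2.49e-07). CDC6, the partner of CDT1 in loading, read 9.71 and 9.69 with glucose against 9.72 and 9.79 without under SRC-1 siRNA, and 9.58 and 9.73 against 9.75 and 9.84 under control siRNA. Within each arm its 2 values with glucose lay below the 2 without, while over all 8 arrays the media overlapped. CDC6 was the member with the lowest averaged effect, -0.10 (adjusted p = 0.153), with a second probe set described below.

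All 6 subunits of the replicative helicase rose by more than 2-fold on average. MCM6 read 11.75 and 11.83 with glucose and 9.71 and 9.69 without under SRC-1 siRNA, and 11.77 and 11.84 against 9.89 and 10.04 under control siRNA. MCM4 read 10.62 and 10.48 against 8.85 and 8.83 under SRC-1 siRNA and 10.52 and 10.62 against 8.74 and 8.99 under control siRNA. The media were separated upwards in both arms for each subunit, as for 5119 of 13584 genes with SRC-1 siRNA and 4958 with control siRNA. The averaged effects were 1.96 ± 0.054 for MCM6, 1.71 ± 0.067 for MCM4 and 1.58 ± 0.060 for MCM2 (SE, adjusted p = 5.95e-08, 3.16e-07 and 2.73e-07). MCM7, MCM3 and MCM5 followed at 1.47, 1.45 and 1.40. MCM8, a relative that works with MCM9 in recombination and not in the MCM2 to MCM7 ring, had the smallest effect of the family. It read 9.10 and 8.97 with glucose and 8.16 and 8.17 without under SRC-1 siRNA, and 8.92 and 9.03 against 8.12 and 8.29 under control siRNA, higher by 0.82 on average (adjusted p = 7.28e-06), while its second probe set was not called.

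All 8 genes that start the loaded helicase rose, 5 of them at least 2-fold on average, against 29.5% and 2.21% of all genes. MCM10, which joins the helicase as it starts to unwind, read 9.70 and 9.69 with glucose and 7.68 and 7.64 without under SRC-1 siRNA, and 9.64 and 9.70 against 7.63 and 7.79 under control siRNA. GINS1, a subunit of the GINS complex that binds the helicase, read 11.63 and 11.53 against 9.69 and 9.88 under SRC-1 siRNA and 11.50 and 11.56 against 9.78 and 9.89 under control siRNA. These were the largest effects of this role, 1.996 ± 0.052 for MCM10 and 1.74 ± 0.060 for GINS1 (SE, adjusted p = 4.55e-08 and 1.71e-07), and MCM10 ranked the tenth of all genes tested. GINS2 was higher by 1.48 ± 0.045 (SE, adjusted p = 9.81e-08), GINS4 by 1.10, GINS3 by 0.96 and CDC45, the third part of the active helicase, by 0.86. Of the kinase that triggers firing, CDC7, the catalytic subunit, was higher by 1.26 and DBF4, the regulatory subunit, by 0.30 (adjusted p = 1.38e-06 and 0.00287). DBF4 read 10.42 and 10.33 with glucose and 9.93 and 10.14 without under SRC-1 siRNA, and 10.30 and 10.31 against 9.98 and 10.10 under control siRNA.

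**Figure D3:**
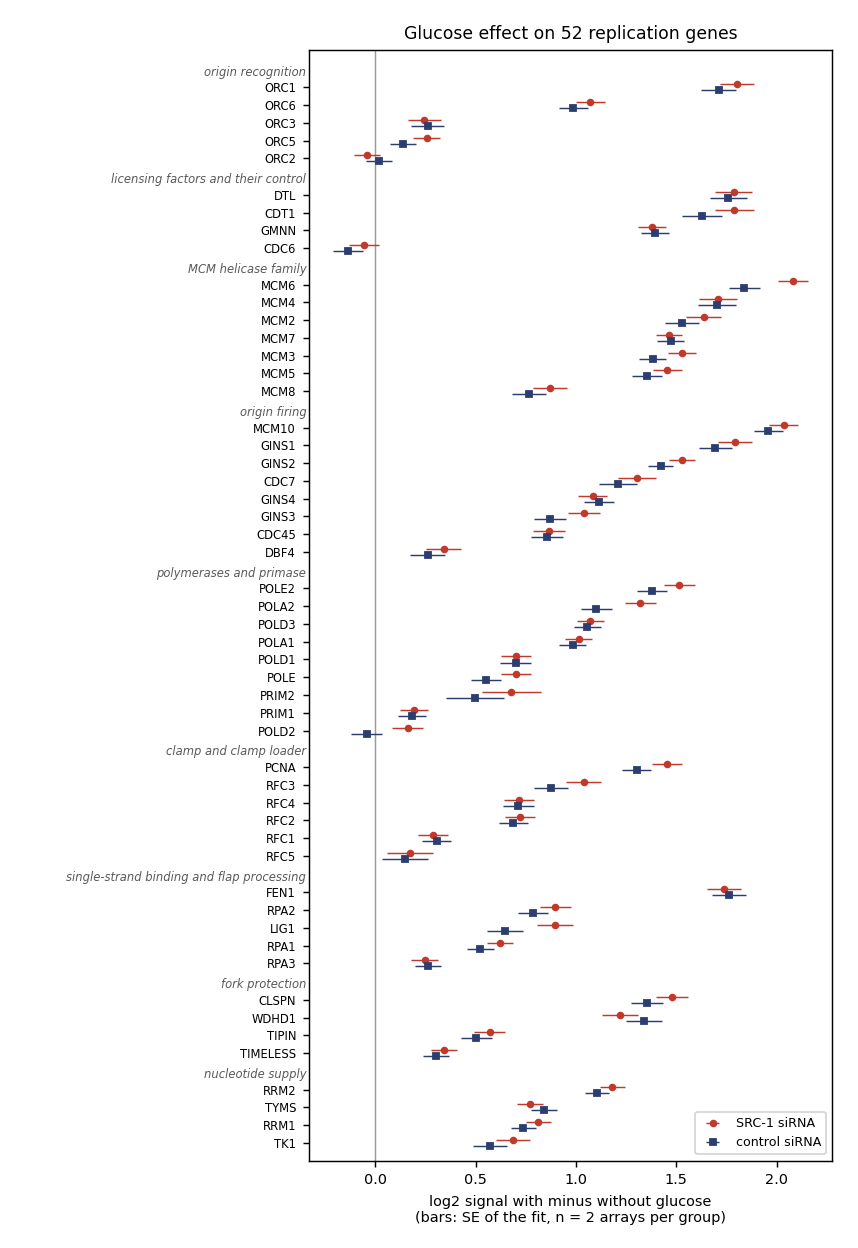
Glucose effect on each of the 52 members, as the difference of mean log2 signal with and without glucose (x axis) in cells with SRC-1 siRNA (circles) and control siRNA (squares), with SE bars from the fit and genes grouped by role. Within a role the effects differ between genes, from -0.01 to 1.76 on average for origin recognition and from 0.82 to 1.96 for the MCM family, and the effect with SRC-1 siRNA minus that with control siRNA runs from -0.12 to 0.25 over the genes.

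Of the 9 polymerase and primase genes 8 were higher on average. POLE2, the second subunit of the leading-strand polymerase epsilon, read 9.16 and 9.06 with glucose and 7.67 and 7.52 without under SRC-1 siRNA, and 9.03 and 9.11 against 7.69 and 7.69 under control siRNA. POLA2, the accessory subunit of the priming polymerase alpha, read 9.10 and 9.21 against 7.80 and 7.87 under SRC-1 siRNA and 8.99 and 9.09 against 7.88 and 8.0004 under control siRNA. Both separated by medium, with averaged effects of 1.45 and 1.21 (adjusted p = 2.45e-07 and 6.04e-07), beside 0.63 and 1.00 for the catalytic subunits POLE and POLA1. In polymerase delta, POLD3 was higher by 1.06 and the catalytic POLD1 by 0.70, and POLD2 was not called. POLD2 read 9.004 and 9.06 with glucose and 8.85 and 8.89 without under SRC-1 siRNA, and 8.85 and 8.97 against 8.89 and 9.02 under control siRNA, with an averaged effect of 0.06 (adjusted p = 0.390). The primase subunits PRIM1 and PRIM2 were higher by 0.19 and 0.59 on average (adjusted p = 0.0108 and 0.00124), but PRIM1 passed in neither arm alone, at 0.19 with SRC-1 siRNA and 0.18 with control siRNA (adjusted p = 0.0528 and 0.0635). Other settings did call it, 5 of them with SRC-1 siRNA and 2 with control siRNA. PRIM2 has a near copy, PRIM2BP, and 4 probe sets that the annotation ties to both were not used, so its value is uncertain.

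Of the clamp and its 5 loader genes, 5 were higher on average. PCNA, the sliding clamp that holds polymerases on DNA, read 13.04 and 12.97 with glucose and 11.50 and 11.60 without under SRC-1 siRNA, and 13.02 and 12.95 against 11.63 and 11.73 under control siRNA. RFC3, a loader subunit, read 10.35 and 10.44 against 9.33 and 9.38 under SRC-1 siRNA and 10.17 and 10.38 against 9.37 and 9.44 under control siRNA. PCNA was higher by 1.38 and RFC3 by 0.96 on average (adjusted p = 2.49e-07 and 3.36e-06), both with their media apart in each arm. RFC4, RFC2 and RFC1, the largest loader subunit, were higher by 0.71, 0.70 and 0.30. RFC5 read 10.01 and 10.21 with glucose against 9.92 and 9.96 without under SRC-1 siRNA, and 10.02 and 10.22 against 9.83 and 10.12 under control siRNA, so its values overlapped between the media with control siRNA. Its averaged effect was 0.16 ± 0.082 (SE, adjusted p = 0.133), and its further probe sets differed from this.

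All 5 genes of single-strand binding and flap processing rose. FEN1, which trims the flaps of lagging-strand fragments, read 11.67 and 11.66 with glucose and 9.91 and 9.94 without under SRC-1 siRNA, and 11.61 and 11.67 against 9.76 and 10.00 under control siRNA, an averaged rise of 1.75 ± 0.060 (SE, adjusted p = 1.71e-07). RPA2, the middle subunit of the single-strand binding protein RPA, read 10.00 and 10.19 against 9.18 and 9.21 under SRC-1 siRNA and 9.93 and 9.97 against 9.18 and 9.16 under control siRNA. Its effect of 0.84 was followed by 0.77 for LIG1, the ligase that seals the fragments, and 0.57 for RPA1, the large subunit that contacts DNA. RPA3, the small subunit, read 11.44 and 11.38 with glucose and 11.16 and 11.17 without under SRC-1 siRNA, and 11.44 and 11.43 against 11.13 and 11.21 under control siRNA. It was higher by 0.25 (adjusted p = 0.00147), so the 3 subunits of one complex all rose, by unequal amounts.

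All 4 fork protection genes rose. CLSPN (claspin), which carries the checkpoint signal from a stalled fork, read 6.41 and 6.45 with glucose and 4.89 and 5.01 without under SRC-1 siRNA, and 6.52 and 6.37 against 5.13 and 5.04 under control siRNA. Its values without glucose lay near the filter at log2 4.80. Its mean signal stood at percentile 53.8, within the 43.2 to 62.4 of the markers of other cell types that passed the filter. WDHD1, which ties polymerase alpha to the helicase, read 7.73 and 7.68 against 6.48 and 6.50 under SRC-1 siRNA and 7.69 and 7.76 against 6.25 and 6.52 under control siRNA. They were higher by 1.41 and 1.28 on average (adjusted p = 3.28e-07 and 1.01e-06). The partners TIPIN and TIMELESS, which travel with the fork as a pair, were higher by 0.54 and 0.32 (adjusted p = 4.67e-05 and 4.01e-04). TIMELESS read 9.84 and 9.75 with glucose and 9.47 and 9.44 without under SRC-1 siRNA, and 9.75 and 9.69 against 9.40 and 9.44 under control siRNA, so a small effect still separated the media in both arms.

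All 4 genes of deoxynucleotide supply rose. RRM2, the small subunit of ribonucleotide reductase and the one whose level follows S phase, read 12.64 and 12.64 with glucose and 11.44 and 11.48 without under SRC-1 siRNA, and 12.64 and 12.67 against 11.55 and 11.56 under control siRNA. TYMS, thymidylate synthase, read 12.28 and 12.21 against 11.46 and 11.49 under SRC-1 siRNA and 12.34 and 12.31 against 11.44 and 11.53 under control siRNA. The averaged effects were 1.14 for RRM2, 0.80 for TYMS and 0.77 for RRM1, the large reductase subunit (adjusted p = 2.49e-07, 2.13e-06 and 1.98e-06). TK1, the thymidine kinase of dividing cells, read 10.42 and 10.38 with glucose and 9.68 and 9.75 without under SRC-1 siRNA, and 10.25 and 10.37 against 9.64 and 9.84 under control siRNA. Its rise of 0.63 was the smallest of this role (adjusted p = 3.42e-05).

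By role, the median averaged effect was highest for the licensing factors (1.55, 4 genes), the MCM family (1.47, 7 genes) and origin firing (1.18, 8 genes). It was 0.91 for fork protection, 0.79 for nucleotide supply, 0.77 for single-strand binding and flap processing, 0.71 for the clamp and its loader, 0.70 for the polymerases and primase and 0.25 for origin recognition. Roles hold 4 to 9 genes each, and their medians were not tested against one another.

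Other genes of replication and nucleotide synthesis were counted beside the 52. Of 38 further replication genes 35 were tested, and 26 were higher, 3 lower and 6 not called, against 29.5% of all genes higher and 26.2% lower, with a median averaged effect of 0.40. EXO1, an exonuclease of repair and replication, was higher by 1.81, the helicase and nuclease DNA2 by 1.41, the histone chaperone ASF1B by 1.38 and CDCA5 (sororin), which holds sister chromatids together, by 0.91 (adjusted p = 6.2e-08, 1.42e-06, 4.01e-07 and 9.51e-07). The 3 lower genes were the topoisomerase TOP1, the fork remodeller SMARCAL1 and the small polymerase delta subunit POLD4, which fell by 0.65, 0.61 and 0.26 (adjusted p = 4.23e-05, 2.23e-05 and 0.00637). Of 33 further genes of nucleotide synthesis 29 were tested, and 14 were higher, 7 lower and 8 not called, against the same shares, with a median of 0.07. The lower count is near the share over all genes. DCK, which salvages deoxycytidine, was higher by 0.91 and PRPS1, which makes the ribose precursor of all nucleotides, by 0.70, while CTP synthase CTPS1 fell by 1.12 and the mitochondrial serine hydroxymethyltransferase SHMT2 by 0.95 (adjusted p = 2.53e-06, 3.98e-06, 5.63e-07 and 1.39e-06). MTBP, GMNC and MMS22L of the replication genes and, among the proliferation markers, CDKN2B were not analysed here, and neither were the listed genes of nucleotide synthesis outside the 29.

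No member passed the test for an effect of SRC-1 siRNA. With glucose 0 of 52 were called in either direction, against 0.00736% of all genes, which is 1 gene. Without glucose 0 were called, against 0.0221%, and averaged over both media 0 were called, against 0.0294%. At an unadjusted p below 0.05 there were 0 members with glucose, 1 without glucose and 1 on average. The largest effect on a member was 0.16 in size with glucose and 0.26 without, on the log2 scale. The widest 95% interval bounds over the 52 were -0.28 (RFC5) and 0.48 (PRIM2) with glucose, and -0.44 (MCM6) and 0.31 (WDHD1) without, so changes of up to 1.40-fold and 1.35-fold lay within the interval of at least 1 member. Without glucose the effect was negative for 41 of 52 members (21.2% positive), with a median of -0.04, where 50.3% of all genes were positive, with a median of 0.0005. With glucose it was positive for 33 members (63.5%), with a median of 0.03, where 57.6% of all genes were, with a median of 0.02. The members were measured on the same arrays, so these signs are not independent of one another.

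MCM6 had the smallest p of the list for the SRC-1 effect. As its values above show, without glucose both SRC-1 siRNA arrays lay below both control siRNA arrays, while with glucose the groups overlapped. The share of all genes separated by siRNA in this way was not counted, so this separation has nothing to be set against. The effect was -0.26 ± 0.076 without glucose (SE, unadjusted p = 0.00796, adjusted p = 0.999), -0.02 with glucose and -0.14 ± 0.054 on average (adjusted p = 0.965). The next smallest p without glucose belonged to GINS2, PCNA, CLSPN and POLE, at -0.12, -0.13, -0.14 and -0.12 (adjusted p = 0.999 for each). With glucose they belonged to RPA2, CDT1, POLD2, LIG1 and POLA2, at 0.14, 0.16, 0.12, 0.13 and 0.11 (adjusted p between 0.925 and 0.953). Averaged over both media they belonged, after MCM6, to RPA2, CDC45, RFC1 and GINS2, at 0.08, -0.09, 0.08 and -0.07 (adjusted p = 1.000 for each).

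Whether SRC-1 siRNA altered the response to glucose was tested as an interaction, the glucose effect with SRC-1 siRNA minus that with control siRNA. It was called for 0 members and 0% of all genes, and 0 members had an unadjusted p below 0.05, against 465 of 13584 genes. The interaction was positive for 42 of 52 members (80.8%), with a median of 0.08, and for 7629 of all genes tested (56.2%), with a median of 0.02. It ran from -0.12 (WDHD1) to 0.25 (LIG1). The smallest p belonged to MCM6, POLA2, LIG1, POLD2 and GINS3, at 0.24, 0.22, 0.25, 0.21 and 0.17 (adjusted p = 0.999 for each). The members share 8 arrays, so their common sign is not 52 independent observations. The widest interval bounds of the interaction were -0.41 (WDHD1) and 0.65 (PRIM2), each for the gene named, and the intervals of the other members lay within these bounds.

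**Figure D4:**
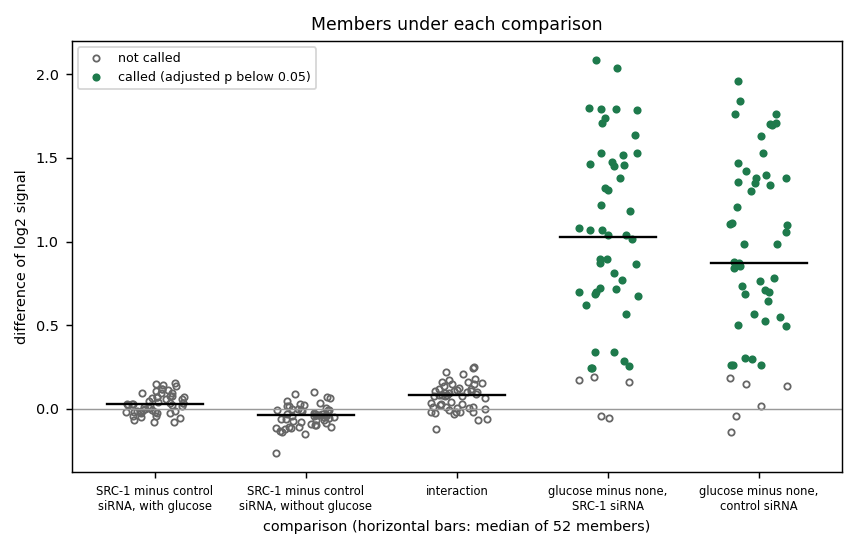
Difference of mean log2 signal for each of the 52 members (points) in 5 comparisons, with the median of the members as a bar. Filled points passed the test (adjusted p below 0.05). No member passed for SRC-1 siRNA in either medium or for the interaction, while 47 and 46 passed for glucose with SRC-1 siRNA and with control siRNA.

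Probe sets of the same gene were compared. In a fit of all 41091 probe sets without a filter, 81 of the 98 member probe sets were higher with glucose on average, 1 was lower and 16 were not called, against 17.3% higher and 15.9% lower over all. Of the 87 past the filter 77 were higher and 0 lower, and of the 11 below it 4 were higher and 1 lower. A single probe set stood for 23 members, and of the 29 with several, 16 had every probe set called higher. At least 1 probe set was called higher for 51 of 52 members, the exception being POLD2, which has 1 probe set. Genes with several probe sets, up to 5, pass this count more easily. The same share was not counted over all genes, so the 51 has nothing to be set against.

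Of the 4 members not called by their brightest probe set, 3 have others. The RFC5 probe set 203209_at read 10.45 and 10.49 with glucose and 9.35 and 9.38 without under SRC-1 siRNA, and 10.43 and 10.45 against 9.37 and 9.38 under control siRNA. It was higher by 1.08 and 203210_s_at by 0.96 (adjusted p = 1.55e-06 and 7.78e-06), against 0.16 for 213734_at. For ORC2, 235423_at read 6.93 and 6.89 with glucose and 6.23 and 6.28 without under SRC-1 siRNA, and 7.03 and 6.98 against 6.22 and 6.16 under control siRNA. That is an averaged rise of 0.74 (adjusted p = 1.52e-05), beside -0.01 for the brighter 204853_at. For CDC6, 203968_s_at read 9.67 and 9.72 with glucose and 9.44 and 9.19 without under SRC-1 siRNA, and 9.65 and 9.70 against 9.29 and 9.50 under control siRNA, which is a rise of 0.33 (adjusted p = 0.00977), beside -0.10 for 203967_at. Without the second control siRNA array without glucose, 213734_at was higher by 0.23 on average (adjusted p = 0.0398), and with a replicate block its 0.16 was called too (adjusted p = 0.0412). All 3 genes were called higher by another of their probe sets.

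In all, 7 genes held a probe set with an effect below 0, ORC2 and CDC6 among them. The remaining 5 ran the other way, with the brightest probe set higher and another flat or below 0. For GINS2, 221521_s_at gave 1.48, 243136_at 0.62 and 1557595_at -0.01 (adjusted p = 4.23e-07, 7.08e-04 and 0.917). For MCM4, 4 probe sets gave 1.54 to 1.90 and 242479_s_at gave -0.09 (adjusted p = 0.345 for the last). For POLD3, 212836_at gave 1.06 and 239816_at gave -0.0037. In 2 further genes the negative value came from a dim probe set below the filter. TYMS had 0.80 and 0.90 in its bright probe sets and -0.07 in 217684_at (adjusted p = 0.614). ORC5 was the only member called in both directions, with 0.20 for 204957_at, 0.05 for 211212_s_at and -0.53 for the dim 211213_at (adjusted p = 0.0271, 0.592 and 0.00687). Which transcripts each probe set binds was not tested.

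A further 5 genes held a probe set that was not called and lay above 0. For MCM8, 224320_s_at gave 0.82 and 233560_x_at, also past the filter, gave 0.0080 (adjusted p = 0.941 for the second). For RFC1, 208021_s_at gave 0.30 and 209085_x_at, past the filter as well, gave 0.08 (adjusted p = 0.369 for the second). In GINS4, POLA2 and RFC3 the probe sets that were not called were below the filter, at 0.18 and 0.26 beside 1.10 for GINS4, 0.01 beside 1.21 for POLA2 and 0.17 beside 0.96 for RFC3. CDT1 and CLSPN had all of their probe sets called higher, by unequal amounts. CDT1 gave 1.71 in 228868_x_at and 0.44 in 209832_s_at, both past the filter, and CLSPN gave 1.41 in 243840_at and 0.31 to 0.67 in 3 dim probe sets.

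**Figure D5:**
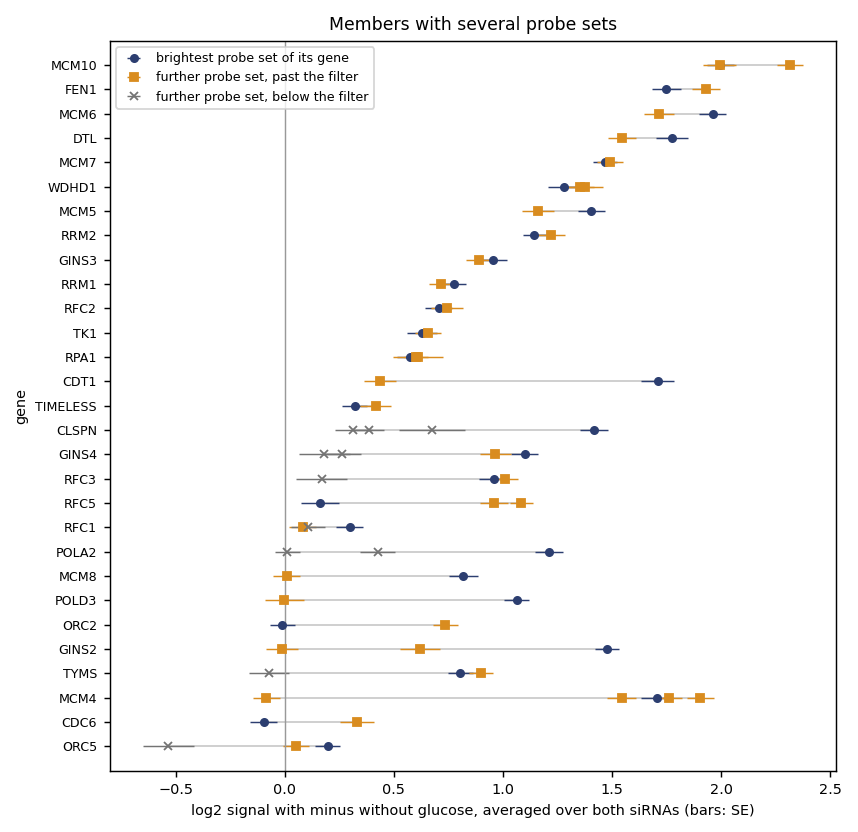
Averaged glucose effect with SE for every probe set of the 29 members that have several, 1 row for each gene, ordered by the lowest value. Circles are the brightest probe set of a gene, squares further ones past the filter on dim signal and crosses those below it. In the upper rows every probe set lies well above 0, from 1.99 to 2.31 for MCM10 and from 1.47 to 1.49 for MCM7. Among the genes whose probe sets lie far apart are MCM4, GINS2, CDT1, POLA2, CLSPN, POLD3, TYMS, RFC5, GINS4, MCM8, RFC3, ORC2 and ORC5.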

How the data were processed

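RNA of A549 cells was measured on 8 Affymetrix 3' arrays, and the authors deposited one table of log2 signals, a value for each probe set and array. That the base is 2 was inferred from the numbers. Background correction, summarization and normalization are not given in the sources used here, and arrays have no read depth, so their number limits the precision. Groups and replicate numbers came from the sample titles, per the labels.

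Probe sets tied to 1 gene by the platform annotation were kept (41091 of 54675). Those with a mean below the 40th percentile (log2 4.80) were left out, and the brightest per gene was used (13584 genes). All 8 arrays entered 1 limma fit (limma 3.58.1, R 4.3.3) with a mean per group, moderated two-sided tests with 4 residual and 4.35 prior degrees of freedom, and Benjamini-Hochberg adjustment over all genes at 0.05. A second fit took all probe sets. A permutation of 2 arrays against 2 cannot go below p = 0.333, so single calls rest on the shared spread. Fits were tested on simulated data with independent genes, 200 of them changed. The glucose comparisons called far more genes than that, so the simulation does not reproduce these data. Promoters were searched with Python 3.11.15.

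The 52 members, the lists and the tests were chosen with earlier results of these data known. In each role the 2 members with the largest averaged glucose effect and the one with the smallest are given on every array, the top 10 with SE, and for the siRNA effects and interaction the 5 smallest p. Of other lists up to 4 genes with the smallest p are named. TOP1, SMARCAL1, POLD4, ORC4, the A549 markers and the single probe sets were named after their values were seen. Replicate numbers were not used to pair the arrays in the main fit. Deviations of same-numbered arrays correlated at -0.096 to 0.117, which shows little shared deviation but cannot tell whether the cultures were paired.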

Additional observations from a re-analysis of the deposited data

How the results depend on the processing

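The counts of members called were recomputed under 10 alternatives and with each of the 8 arrays left out. With a replicate block, 47 members were higher with glucose under SRC-1 siRNA, 46 under control siRNA and 49 on average, and 0 were called for any siRNA effect or the interaction. Leaving out single arrays gave 43 to 47, 42 to 46 and 48 to 49 members higher, and 0 for the siRNA effects. Quantile normalization, centring, a filter at the 60th percentile or none, averaging each gene over its probe sets, another prior, array weights and, for the single arms and media, fits of only the groups compared gave 46 to 50, 44 to 47 and 47 to 50. CLSPN, at percentile 53.8 of signal, was not tested under the 60th percentile filter, so the counts there are of fewer members. Without probe sets that carry the endings _s_at or _x_at, 37 members were tested, and 31 were higher under SRC-1 siRNA, 30 under control siRNA and 32 on average. Fewer genes were tested there by construction. The count of members called lower was 0 in all of these. Single genes that turned sign did so with other probe sets: ORC2 with the mean of its probe sets (0.31 under SRC-1 siRNA and 0.36 on average, adjusted p = 0.00242 and 8.19e-05) and GINS2 without such probe sets (-0.027 under SRC-1 siRNA, -0.0005 under control siRNA and -0.014 on average). The mean of the probe sets raised RFC5 to 0.73 on average (adjusted p = 3.95e-06). In single arms PRIM1 was gained with SRC-1 siRNA under centring, the 60th percentile filter, the mean of probe sets, another prior and array weights (adjusted p = 0.0295 to 0.0487) and with control siRNA under that filter and that prior (adjusted p = 0.0366 and 0.0394). The mean of probe sets also gained RFC5 in both arms and ORC2 with control siRNA. Calls in single arms were lost under at least 1 alternative for ORC3, ORC5, DBF4, RFC1 and RPA3 with SRC-1 siRNA and for ORC3, DBF4, PRIM2, RFC1 and RPA3 with control siRNA. These were 17 and 16 of 920 values in each arm, most of them from leaving out an array, and none of these genes was lost on the average over both arms. With 2 arrays in each group the spread is shared over genes, signal could not be set against background, and folds at low signal may be compressed.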
